A study of Drosophila melanogaster with 4 samples.

Results

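CP190 clusters along chromosome arm 3L of Drosophila melanogaster are described here, outside the 2 Mb next to the centromere. A cluster is a region that the authors called as significantly enriched in CP190 chromatin immunoprecipitation followed by sequencing (ChIP-seq). Members are those clusters of the authors' list for the whole series, here the combined list, whose midpoint lies on 3L at or below position 22543557 (FlyBase release 5, 1-based). By this rule 1431 of the 7960 combined clusters are members, and 50 further clusters of the arm lie past the limit. The samples were whole embryos of the wild-type strain Oregon-R, labelled 14 to 16 h of development, with a collection protocol that states only that embryos were no older than 16 h. All groups share this strain, genotype and stage. There were 2 CP190 ChIP samples and 2 input samples, and 1 cluster list was deposited for each ChIP replicate. The inputs are represented only through the cluster calls. Whole embryos mix many cell types, so a cluster cannot be assigned to any of them. The labels do not state whether the replicates were separate embryo collections, and their differences may be technical.

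CP190 carries a BTB domain, through which it pairs with itself and with partner proteins, and C2H2 zinc fingers. It reaches chromatin largely through sequence-specific insulator proteins of the fly, among them Su(Hw), the fly CTCF and BEAF-32. Insulator complexes can separate an enhancer from a promoter, and CP190 sites are known from promoters of active genes and from borders of topological domains. The arm 3L runs from the telomere, at low coordinates, to the pericentromeric heterochromatin of chromosome 3 at high coordinates.

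Each cluster carries 1 deposited log2 score, read as the log2 of an enrichment ratio, with no unit named in the files. Scores are therefore used to rank and describe clusters within a list. Read depth is unknown for all 3 lists, and no error can be given for a single score. With 1 condition and 1 list per ChIP replicate, no test between groups was possible. Intervals below are exact (Clopper-Pearson) 95% intervals over clusters, which share their libraries and are not replicates. Clusters are on release 5 of the genome and the available gene table is on release 6, so no gene is named for a cluster and no sequence is printed.

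CP190 clusters lay all along 3L, most of them less than 20 kb from the next, and close to 1 member in 2 was called in both ChIP replicates. The 1431 members lay on 22.5 Mb, at 63.5 per Mb, and covered 13.1% of that sequence. On the same stretch replicate 1 had 837 clusters (37.1 per Mb, covering 7.80%) and replicate 2 had 916 (40.6 per Mb, covering 9.05%). The combined list thus holds more clusters here than either replicate list. Member lengths ran from 1001 to 8034 bp with a median of 2010 bp, and log2 scores ran from 0.10 to 2.39 with a median of 0.40. In the replicate lists the median log2 scores on this stretch were 0.56 and 0.60.

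A member was counted as found in a replicate if it and a cluster of that replicate had 1 bp or more in common. Of the members, 700 were found in both replicates (48.9%, 95% interval 46.3 to 51.5%), against 46.5% of all combined clusters. Replicate 1 alone held a further 101 (7.06%) and replicate 2 alone 201 (14.0%), against 7.22% and 13.6% of the whole list. The remaining 429 (30.0%, 27.6 to 32.4%) were found in neither, against 32.6% of the whole list. The shares on 3L are near those of the whole list, so they single out nothing about the arm. Members found in both replicates covered 1.83 Mb of the 2.96 Mb under members, and those found in neither covered 0.573 Mb.

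Replicate support followed the length of a member closely and its score in part. For members found in both, the median log2 score was 0.61 (interquartile range 0.45 to 0.88) and the median length 2249 bp. For members found in neither, the medians were 0.35 (0.30 to 0.39) and 1237 bp. Between them in length, but not in score, lay the members found in 1 replicate. Those of replicate 1 only showed medians of 0.34 and 1807 bp, and those of replicate 2 only 0.32 and 1888 bp. So the members without any replicate support were the shortest group while their median score was slightly above that of the members with support from 1 replicate.

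The dependence on length had a sharp step near 2 kb. None of the 272 members of 1001 to 1300 bp and none of the 131 members of 1301 to 1600 bp was found in both replicates, while 240 and 93 of them were found in neither. Clusters shorter than 1303 bp do not occur in either replicate list on this stretch, and the median lengths there were 2024 and 2078.5 bp. Where 1 cluster of each replicate lay under a member, the member was longer than both in 558 of 677. Support from both replicates thus favours members of about 2 kb or more by construction, and the step is not read apart from the width of replicate clusters. From 1601 to 2000 bp, 53 of 303 members (17.5%) were found in both. From 2001 to 2500 bp the count was 407 of 453 (89.8%), from 2501 to 3500 bp it was 148 of 178 (83.1%), and above 3500 bp it was 92 of 94 (97.9%). Members of 2001 to 2500 bp formed the largest length class, and their log2 scores covered a wide range, from 0.27 to 2.02. Score alone also separated the classes, with 44 of 358 members (12.3%) found in both in the lowest score quartile and 349 of 358 (97.5%) in the highest. Across all 1431 members, which share their libraries, length and log2 score had a Spearman correlation of 0.617.

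**Figure D1:**
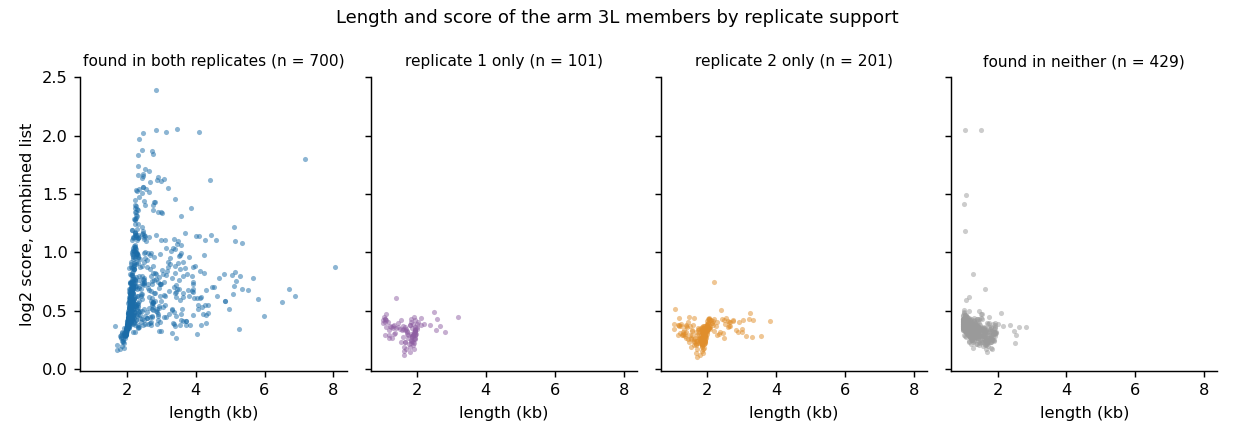
Length in kb (x axis) and log2 score in the combined list (y axis) of each member, 1 point per member, in 1 panel per class of replicate support. The 700 members found in both replicates rise steeply in score at lengths just above 2 kb, while most of the 429 found in neither lie below 2 kb with log2 scores around 0.35.

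Seen from the replicate lists, 718 of 837 clusters of replicate 1 on the stretch (85.8%, 95% interval 83.2 to 88.1%) overlapped a cluster of replicate 2, against 84.7% over the whole list. Of the 916 clusters of replicate 2, 710 (77.5%, 74.7 to 80.2%) had a counterpart in replicate 1, against 76.5%. The combined list overlapped 820 clusters of replicate 1 (98.0%) and 913 of replicate 2 (99.7%), against 97.8% and 99.0% over whole lists. Only 17 clusters of replicate 1 and 3 of replicate 2 on this stretch therefore lacked a combined counterpart, none with a log2 score above 0.68. The replicates shared 1.50 Mb, or 65.5% of the sequence under either list, while 0.742 Mb of the sequence under members lay outside both replicate lists.

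The strongest CP190 member of the arm was the same place in all 3 lists. It lay at 504553 to 507390, near the telomere-facing end, with a log2 score of 2.39 in the combined list, 2.27 in replicate 1 and 2.55 in replicate 2. It ranked first on the stretch in each list, and its nearest neighbours were 34764 and 60054 bp away. In the combined list of the whole genome it ranked 46.

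The 10 members with the highest log2 score among those found in both replicates were spread over the arm. The next was at 19131380 to 19134850, with a log2 score of 2.05 in the combined list, 2.18 in replicate 1 and 2.30 in replicate 2. The member at 2529936 to 2532769 had 2.05, 2.00 and 2.20 in the same order of lists, and the one at 17587501 to 17591608, 4108 bp long, had 2.03, 1.99 and 2.24. These 4 members ranked between 1 and 6 in replicate 1 and between 1 and 5 in replicate 2. They were picked by combined score and support in both replicates, which favours high ranks in the replicate lists.

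The member at 2850020 to 2853159 had log2 scores of 2.03 in the combined list, 2.06 in replicate 1 and 2.42 in replicate 2. At 6972085 to 6974542 the scores were 2.02, 1.89 and 2.17, and at 14103575 to 14105921 they were 1.97, 1.77 and 2.20. The member at 21475913 to 21478359 had 1.88, 1.65 and 2.13, with ranks of 16 in replicate 1 and 8 in replicate 2. Scores were higher in replicate 2 for 9 of the 10 members. The exception was 18452404 to 18455145, with 2.06 in replicate 1, 1.84 in replicate 2 and 1.87 in the combined list, which ranked 4 and 14. The last of the 10 lay at 14204167 to 14206924, with 1.84 in the combined list, 1.70 in replicate 1 and 1.99 in replicate 2. All 10 ranked between 1 and 16 in replicate 1 and between 1 and 14 in replicate 2, and their lengths ran from 2347 to 4108 bp.

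Strong members were rare. A log2 score above 1 was reached by 130 members (9.08% of all), and 125 of them were found in both replicates. They were 5.77 per Mb, with a median distance of 106567 bp from one to the next. In 2 cases neighbours among them lay within 5 kb of each other. Fewer clusters give wider distances by construction, and whether strong members were spaced otherwise than by their number was not tested. Some member lay within 5 kb for 46 of the 130 (35.4%), against 644 of all 1431 members (45.0%). Of the 10 strongest members found in both, 2 had a neighbour within 5 kb, and the distance to the nearest member ranged from 3087 to 40286 bp with a median of 12607 bp. Below a log2 score of 0.5 the picture was different. The 852 members between 0.25 and 0.5 made up 59.5% of the list, and 27.3% of them were found in both replicates, whereas between 0.5 and 0.75 it was 222 of 230 (96.5%).

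A few short members had high scores and no replicate support. Of the 8 members with a log2 score above 2, 6 were found in both replicates and 2 in neither. These 2 lay at 16181026 to 16182076 (1051 bp) and 21492003 to 21493532 (1530 bp), and both had the same log2 score of 2.05. A further such member lay at 4328702 to 4329791 (1090 bp) with 1.49. All 5 members above 1 without support were 1029 to 1530 bp long, and the 125 with support in both replicates were 2162 to 7184 bp long. These lengths did not overlap. Over members of any score, those found in neither were 1001 to 2833 bp long and those found in both 1662 to 8034 bp. Those lengths did overlap, and short members of any score were rarely supported by both replicates.

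Of the 5 longest members, 4 had moderate scores and 1 was among the strongest. The longest, at 9684633 to 9692666, measured 8034 bp and had a log2 score of 0.88, and it was a single cluster of 7864 bp in replicate 1 and 7948 bp in replicate 2. The next, at 14747131 to 14754314, was 7184 bp long and also strong, with log2 scores of 1.80 in the combined list, 1.67 in replicate 1 and 1.92 in replicate 2. In both cases the replicates gave nearly the full width.

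The other members among the 5 longest were broken up in at least 1 replicate. The member at 13994026 to 14000908 (6883 bp, log2 score 0.63) covered 2 clusters of each replicate, and the one at 7801112 to 7807808 (6697 bp, 0.69) covered 2 of replicate 1 and 1 of replicate 2. At 5800867 to 5807364 (6498 bp, 0.58), 2 clusters of replicate 1 together spanned 4338 bp and the only cluster of replicate 2 spanned 2213 bp. On the whole stretch 19 members covered more than 1 cluster of replicate 1 and 12 more than 1 of replicate 2. The member with the most was at 11111014 to 11115172, over 3 clusters of replicate 1 and 2 of replicate 2 and with a combined log2 score of 0.38. It overlapped the strongest of these replicate 1 clusters (11115100 to 11118275, log2 score 0.99) only at its edge, as that cluster lay almost wholly under the next member. Next came 603085 to 608233 (log2 score 0.84) and 6986655 to 6991771 (1.21), each over 2 clusters of each replicate.

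Where both replicates called a cluster, they placed it within a small part of its length. Over 696 one-to-one overlapping pairs the midpoints differed by a median of 52 bp, and by at most 100 bp in 496 pairs (71.3%). Starts and ends each differed by a median of 58 bp. Position was more alike for strong pairs: the median midpoint difference was 38 bp in the 232 pairs with the highest mean score and 84 bp in the 232 with the lowest. No cluster had an identical start and end in both lists. The median lengths in pairs were 2071 bp in replicate 1 and 2129 bp in replicate 2, and the replicate 2 cluster was the longer in 475 pairs (68.2%).

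Scores of paired clusters followed a similar order in both replicates over all pairs together, with an offset that was larger for stronger clusters. The log2 scores of the 696 pairs had a Spearman correlation of 0.802 across clusters, which share their libraries and any local sequence property. With the pairs divided into 3 equal groups by mean score, it was 0.737 in the highest group, but -0.074 in the middle and -0.120 in the lowest. Grouping by the mean narrows the range and lowers a correlation by construction. Whether the order held within the middle and lowest groups therefore cannot be told from these values. Replicate 2 was higher in 497 pairs (71.4%), by a mean log2 difference of 0.10 ± 0.17 (SD over pairs). In the pairs with the lowest mean scores the mean difference was 0.04 ± 0.14, in the middle group 0.11 ± 0.18 and in the highest 0.16 ± 0.18 (SD, n = 232 pairs each). How the scores of the lists were scaled against each other is not given, so the offset is not read as a difference in binding. Among the 50 clusters with the highest scores in each list, all 50 of either list overlapped some cluster of the other, and 38 of the 50 in replicate 1 overlapped one of the 50 in replicate 2.

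**Figure D2:**
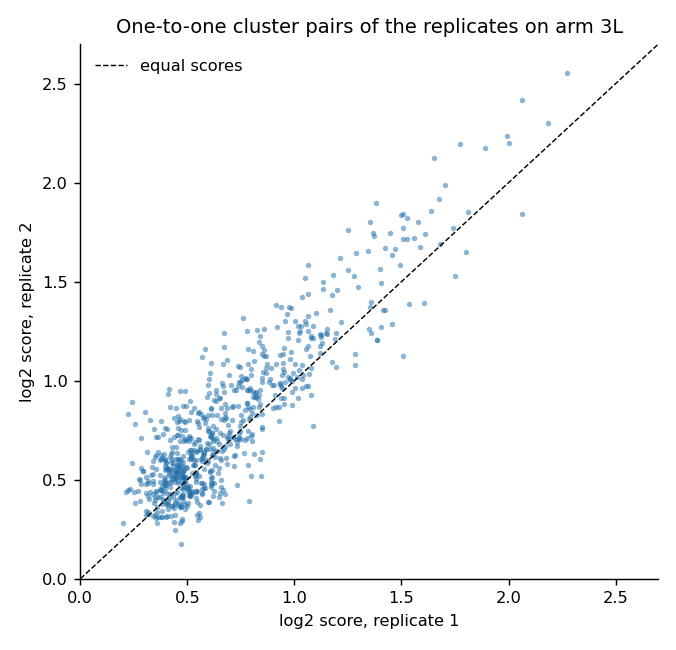
Log2 score in replicate 1 (x axis) against replicate 2 (y axis) for the 696 one-to-one overlapping cluster pairs, 1 point per pair, with a dashed line of equal scores. Most points (71.4%) lie above the line, and the distance from it is larger at high scores.

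The pairs that differed most towards replicate 2 had low to moderate scores in replicate 1, which picking by the difference favours by construction. At 3089767 to 3091689 the log2 score was 0.24 in replicate 1 and 0.89 in replicate 2, the largest difference towards replicate 2 (0.65). The next such pairs were at 4169174 to 4171002, with 0.22 and 0.83, and at 5526558 to 5528615, with 0.58 and 1.16. Their midpoints differed by 23 to 51 bp, so the place was the same while the score was not.

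In the other direction the differences were smaller. The pair at 17203731 to 17205856 had 0.79 in replicate 1 and 0.39 in replicate 2, that at 6695622 to 6697869 had 1.51 and 1.12, and that at 7074408 to 7076554 had 0.85 and 0.52. The pair at 6695622 also differed in extent, as the cluster was 2248 bp long in replicate 1 and 3531 bp in replicate 2.

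Clusters of 1 replicate without a counterpart in the other were of modest score on this arm. The 119 of replicate 1 had a median log2 score of 0.49, against 0.60 for its 718 shared clusters, and a median length of 1519 bp against 2070 bp. The 206 of replicate 2 had 0.45 against 0.71 and 1764 bp against 2130 bp. The unshared clusters were thus weaker and shorter in both lists. Their median distance to the nearest cluster of the other list was 4921 bp and 5681 bp, and 17 and 23 of them lay within 1 kb of one.

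The highest unshared clusters of replicate 1 were at 5994380 to 5995742 (log2 score 0.81) and 5786227 to 5788702 (0.75), and the second of these, at 2476 bp, was also its second longest. The longest of replicate 1 was at 3059567 to 3062370, with 2804 bp and a log2 score of 0.63. In replicate 2 the highest were at 9126543 to 9128704 (1.00) and 5874103 to 5876250 (0.80), and the first lay only 733 bp from a cluster of replicate 1. The longest were at 6125204 to 6128967 (3764 bp, log2 score 0.60) and 12399472 to 12402763 (3292 bp, 0.65). Each of these clusters overlapped a combined cluster.

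Members that only 1 replicate held were weaker in the combined list than in that replicate. The 101 members found in replicate 1 only had a median log2 score of 0.34 in the combined list and 0.49 in replicate 1, lower in the combined list in all 101. The 201 found in replicate 2 only had 0.32 and 0.46, lower in 199. These members were selected by a call in 1 replicate and none in the other, which by itself favours a lower combined score. Where 1 cluster of each replicate lay under a member (677 members), the combined score lay between the replicate scores in 453, below both in 221 and above both in 3. The combined cluster was longer than either replicate cluster in 558 of the 677. How the replicates were combined is not given in the sources used here, and the scales of the lists may differ.

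CP190 clusters were found in every 1 Mb block of the stretch, with an uneven density that the replicates shared. Over the 22 whole blocks counted from the telomere-facing end, the number of members ran from 39 to 82 with a median of 63.5. Replicate 1 had 24 to 48 clusters per block and replicate 2 had 27 to 52, with medians of 38.5 and 41.5. Replicate 2 had more clusters than replicate 1 in 18 blocks and fewer in 3. Across the 22 blocks, which share their libraries, the replicate counts had a Spearman correlation of 0.899. Most clusters of each replicate overlapped one of the other (85.8% and 77.5%), so similar counts largely follow from that overlap.

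The block with the most members was 3000001 to 4000000, with 82 members, 41 clusters of replicate 1 and 48 of replicate 2. It was followed by 16000001 to 17000000 with 81 members and by 9000001 to 10000000 with 79. The sparsest blocks were 14000001 to 15000000 with 39 members and 10000001 to 11000000 with 40. Replicate 1 had 28 and 27 clusters in these sparse blocks, and replicate 2 had 34 and 27. Per block, 6 to 30 members were found in neither replicate and 20 to 40 in both, with medians of 19 and 32.5. Both sparse blocks were below the median in supported members, with 27 and 20.

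The share of supported members was a different matter. The block 14000001 to 15000000 had the fewest members of the 22, but 27 of its 39 (69.2%) were found in both replicates, the highest share of any whole block, and only 6 in neither, the lowest count. Its median log2 score of 0.48 was also the highest. The block 6000001 to 7000000 was similar in these respects, with 40 of 60 members (66.7%) found in both and a median log2 score of 0.47. At the other end, 19000001 to 20000000 had 24 of 62 (38.7%) found in both. These blocks were picked out after their values were seen.

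Strong members were spread unevenly too. The blocks 6000001 to 7000000 and 21000001 to 22000000 each had 11 members with a log2 score above 1, and 16000001 to 17000000 had 10. The block next to the last of these, 15000001 to 16000000, had 63 members and none above 1, and 7000001 to 8000000 had 69 members and 1 above 1. High density of members and many strong members did not go together closely (Spearman 0.265 across the 22 blocks). The offset between the replicates was in 1 direction throughout, with a block median of the log2 score difference, replicate 2 minus replicate 1, from 0.02 to 0.18.

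**Figure D3:**
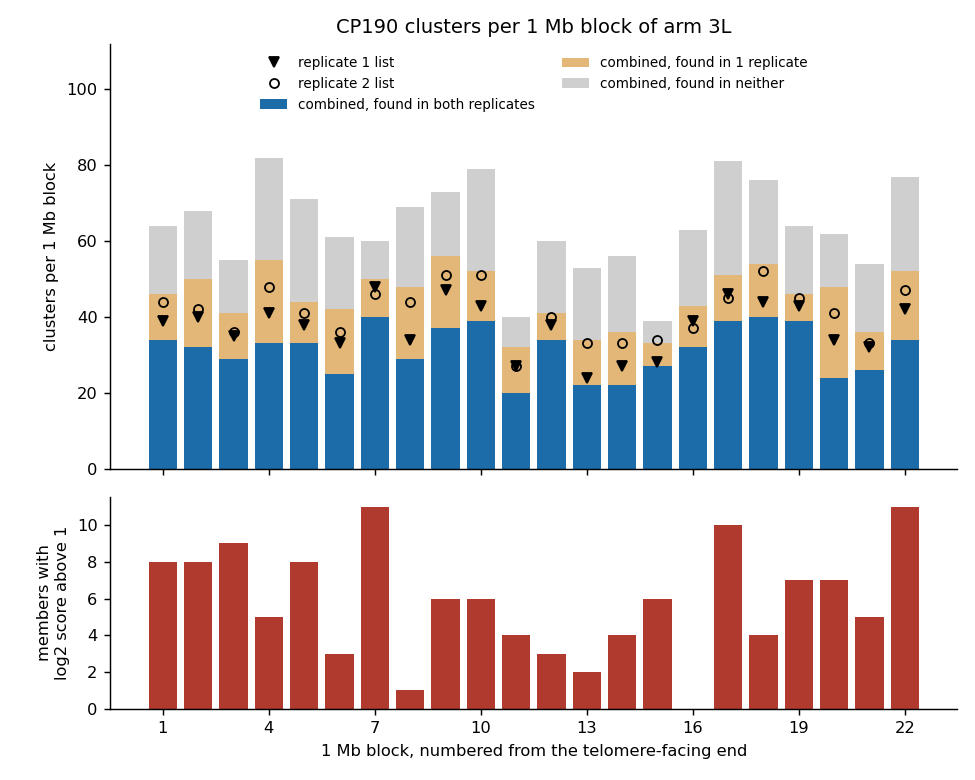
Upper panel, members per 1 Mb block by replicate support (stacked bars) with the number of clusters in each replicate list (symbols), for the 22 whole blocks numbered from the telomere-facing end. Lower panel, members with a log2 score above 1 in the same blocks. Block totals run from 39 to 82, and block 15 has the fewest members but a supported part of 27.

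Neighbouring members were usually separated by several kb. The median distance between midpoints of neighbours was 9746 bp, with an interquartile range of 4902 to 19310 bp. In the replicate lists the medians were 16704.5 bp and 15540 bp. Of 1430 distances between members, 374 (26.2%) were at most 5 kb and 70 (4.90%) were above 50 kb. In the replicate lists 135 of 836 (16.1%) and 119 of 915 (13.0%) were above 50 kb. Shorter lists give wider distances by construction.

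More than 1 member in 2 had no neighbour within 5 kb. Members chained at distances of at most 5 kb formed 200 pairs and 70 longer runs, while 787 members (55.0%) stood alone. The longest run had 8 members over 23095 bp, from 16573992 to 16597086, and none of its log2 scores was above 0.45. Both replicates held 3 of these 8, replicate 1 alone held 3, and 2 were found in neither. A run of 6 members at 1187878 to 1209262 was stronger, with 4 found in both and a highest log2 score of 1.56. The run of 5 at 18008829 to 18027126 was the only one of the 8 runs with 5 or more members in which every member was found in both replicates.

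Isolated members were somewhat stronger and better supported than members with close neighbours. The 99 members with no other within 20 kb had a median log2 score of 0.47, and 57 of them (57.6%) were found in both replicates. The 644 members with a neighbour within 5 kb had 0.38 and 280 (43.5%). The difference was not tested, as neighbours are not independent of each other. Scores of neighbours were nearly uncorrelated, with a Spearman correlation of log2 scores of 0.026 across the 1430 neighbouring pairs and 0.019 across the 374 pairs within 5 kb.

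**Figure D4:**
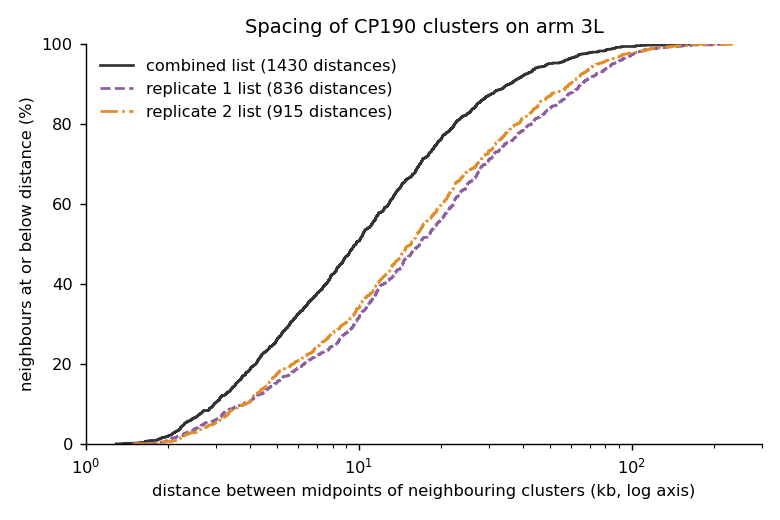
Cumulative share of neighbouring clusters (y axis, %) at or below a midpoint distance (x axis, kb, log axis) on the stretch, for the combined list and each replicate list. The combined list reaches its median at 9746 bp, and the replicate lists reach theirs at 16704.5 and 15540 bp.

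The widest stretches without a member gave 9 distances above 100 kb. The widest was 164295 bp, between the member at 18226374 to 18228347 (log2 score 0.31) and that at 18390625 to 18392686 (0.67), both found in both replicates. Next came 137914 bp between 14794270 to 14796356 (0.46) and 14932464 to 14933990 (0.36), where replicate 1 alone had 1 cluster inside. A distance of 136394 bp followed between 14265053 to 14268464 (1.03) and 14401766 to 14404538 (0.53). Others of similar width were 136076 bp between 6341800 to 6342886 (0.32) and 6477426 to 6479412 (0.36), and 112050 bp between 6784339 to 6786247 (0.45) and 6896211 to 6898476 (0.90). Of these 5 stretches, 4 held no cluster of any list. Each of the blocks 14000001 to 15000000 and 6000001 to 7000000 held 2 of them, and these are the blocks with the highest shares of supported members.

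Windows of 100 kb show the local extremes. The 225 whole windows held a median of 6 members, and 2 windows held none: 14300001 to 14400000, empty in all lists, and 14800001 to 14900000, with 1 cluster of replicate 1. The window with the most was 9400001 to 9500000, with 15 members, 8 clusters of replicate 1 and 8 of replicate 2. The window 3300001 to 3400000 followed with 14 members, and those starting at 600001, 4400001 and 16500001 had 13 each. Counts of the replicates, whose clusters mostly overlap, had a Spearman correlation of 0.832 across the 225 windows, which share their libraries.

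The 15 members of the densest window were mostly weak, as were those of the whole stretch. Over all members the median log2 score was 0.40, with an interquartile range of 0.33 to 0.61. Its strongest member, at 9421992 to 9424490, had a log2 score of 1.12 in the combined list, 1.09 in replicate 1 and 1.21 in replicate 2. The second, at 9453262 to 9456783 and 3522 bp long, had 0.69, 0.63 and 0.90. The third, at 9469015 to 9471172, had 0.57, 0.63 and 0.57. These were found in both replicates, as were 3 more: 9489759 to 9491833 (0.53 in the combined list), 9458217 to 9460233 (0.38) and 9415482 to 9417500 (0.37).

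The other 9 members of the window had combined log2 scores of at most 0.43. Of these, 9418972 to 9421010 (0.43) and 9434223 to 9436379 (0.41) were found in replicate 2 only. The members at 9482011 to 9483842 (0.40) and 9450513 to 9452014 (0.35) were found in replicate 1 only. The 5 found in neither had scores from 0.24 to 0.30. Of the 15 members of this window, 6 were thus called in both replicates and 9 were not, and the scores of these groups overlapped.

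**Figure D5:**
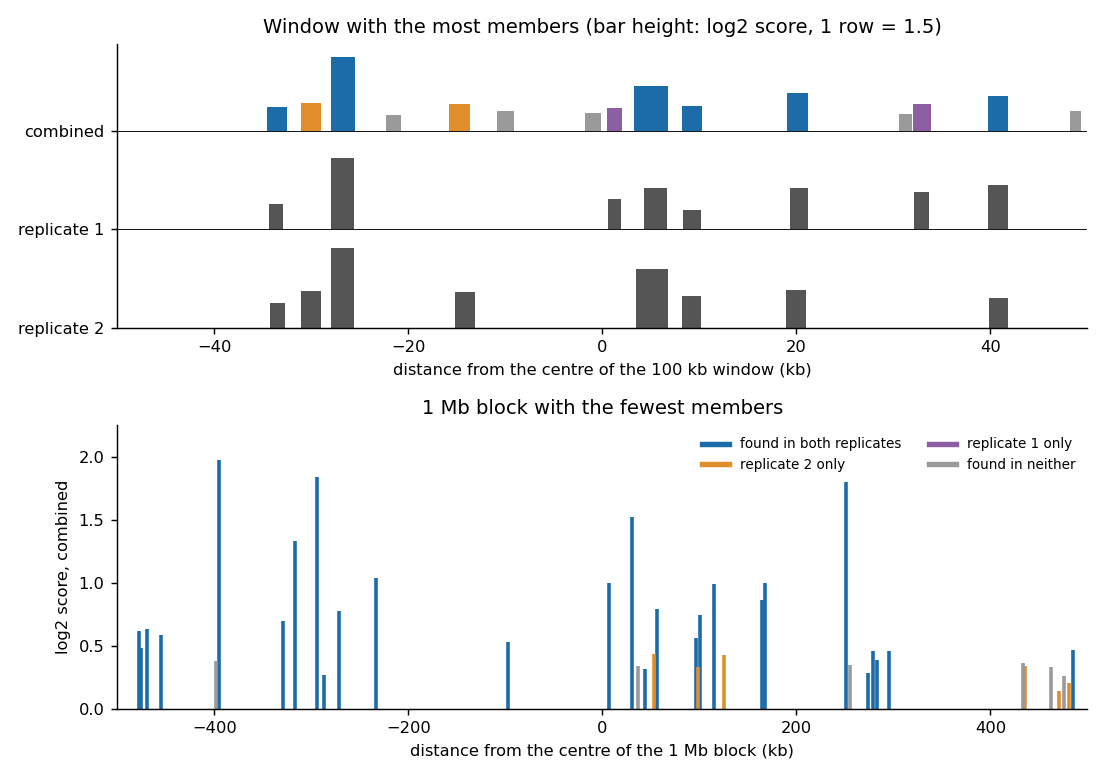
Upper panel, clusters of the densest 100 kb window by distance from its centre (kb) in the 3 lists, with bar width to scale and bar height showing the log2 score. Lower panel, log2 score of the 39 members of the sparsest 1 Mb block by distance from its centre (kb), coloured by replicate support as in the upper row. The lower panel holds both strong members and wide empty stretches, and 27 of its 39 members were found in both replicates.

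The density of CP190 clusters on 3L lay between those of the other large arms. With the 2 Mb next to the centromere left out on each arm, the combined list had 63.5 clusters per Mb on 3L, compared with 60.3 for 2L, 67.2 for 3R, 71.1 for X and 75.7 for 2R. Both replicate lists also placed 3L above 2L and below the other 3 arms, at 37.1 and 40.6 per Mb. The share found in both replicates was 48.9% on 3L (95% interval 46.3 to 51.5%) and ran from 47.0% to 48.1% on the others. The median log2 score of 0.40 on 3L compared with 0.39 to 0.40 on the other autosomal arms and 0.46 on X. A log2 score above 1 was reached by 9.08% of clusters on 3L and by 8.34% to 10.9% elsewhere. These differences between arms were not tested, and no value is called particular to 3L.

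The limit of the stretch fell in a sparse region. The last members before it were at 22462582 to 22464619 (log2 score 0.38, found in both), 22464694 to 22466167 (0.43, found in neither) and 22489845 to 22491885 (0.40, found in both). The first clusters past it were at 22564128 to 22566200 (0.38, replicate 2 only), 22609192 to 22611059 (0.31, neither) and 22626078 to 22628494 (0.86, both). Scores on the 2 sides of the limit overlapped.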

How the data were processed

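CP190 ChIP-seq lists from 2 ChIP replicates of Oregon-R embryos fixed in 1.8% formaldehyde were used. The labels pair ChIP replicate 1 with input 2, and ChIP replicate 2 with input 1. The submitters' processing notes name Bowtie 0.12.7 for the reads. The authors deposited enriched regions with 1 score each, on FlyBase release 5 per the file headers. The sources used here do not state the caller, its thresholds or how the combined list was made, and weak or short clusters depend on them. The deposited scores were taken as log2 values, because 2 raised to the score, divided by 1 constant per list, gave a ratio of whole numbers (denominator at most 2000, relative tolerance 1e-12) for 7954 of 7960, 4460 of 4461 and 4900 of 4900 clusters (combined, replicate 1 and replicate 2), and bases e and 10 did so for at most 0.531%.

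Tables were made in pandas 2.3.3 and NumPy 2.4.6, statistics in SciPy 1.17.1 and plots in matplotlib 3.10.9, under Python 3.11.15. Overlap counting was checked on simulated lists. Replicate score of a member covering several clusters is the highest. The clusters named follow a rule: the 10 highest members found in both replicates, the 5 longest, the 3 highest found in neither, the 2 highest and 2 longest unshared clusters per replicate, the densest 100 kb window, the 5 widest distances, the 3 most different pairs in each direction, the 3 members over most replicate clusters, and the first and last members with those next to the limit. The members, lists and rules were chosen with earlier results of these data known. Alternatives varied overlap, score, length, merging, the list and the stretch.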

Additional observations from a re-analysis of the deposited data

How the results depend on the processing

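Over 8 results and 37 alternative values, 18 stayed within their margin and 19 moved beyond it. None changed direction, but shares, densities, distances and the block ratio have no direction to change. Only the correlation could have done so. Margins were the exact interval for shares, 1.5-fold for density, 0.05 for the correlation, and the SD between the replicate lists for distances and the block ratio. With only clusters above the median score of their list, the share of members found in both replicates was 82.0% and that found in neither 11.0%, and the shared clusters were 95.2% of replicate 1 and 96.9% of replicate 2. Members of at least 1301 bp, a setting chosen after seeing the data, gave 60.4% in both and 16.3% in neither. Members found in both replicates alone gave 31.1 clusters per Mb and a median distance of 20373 bp. Leaving out 1 replicate, which here means using the list of the other, gave 37.1 to 40.6 clusters per Mb and medians of 15540 to 16704.5 bp. Shorter lists lower density and widen distances by construction. The ratio of the densest to the sparsest 1 Mb block was 2.10, and became 2.00 with members found in both, 2.22 after merging clusters less than 200 bp apart, 1.95 with blocks shifted by 0.5 Mb, 1.93 to 2.00 with a replicate left out and 5.86 over the whole arm, which adds the sparse blocks next to the centromere. The score correlation was 0.802 by Spearman and 0.896 by Pearson. No paired analysis was possible because each ChIP replicate is a single list and the inputs have none of their own. Read depth is unknown, so its limit on weak clusters was not measured.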

Other observations

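The values here were looked up after the other results had been seen. At the telomere-facing end of 3L, the first 100 kb window held 1 member and no cluster of either replicate. The window after it held 9 members, 4 clusters of replicate 1 and 5 of replicate 2. The medians over windows were 6, 4 and 4. The first member lay at 54853 to 55874 (1022 bp, log2 score 0.43) and was found in neither replicate. The next, at 128297 to 133357, was 5061 bp long with 0.80. Replicate 2 called it as 1 cluster (128316 to 133460, 0.95), and replicate 1 as a weak one (128331 to 130309, 0.44) beside a stronger one (130402 to 132777, 0.96). The first strong member was at 198202 to 200698, with log2 scores of 1.44 in the combined list, 1.60 in replicate 1 and 1.39 in replicate 2.

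Some neighbouring members nearly touched. In 38 cases less than 200 bp lay between the end of one and the start of the next, with a smallest gap of 9 bp. A single cluster of replicate 1 bridged 1 of these gaps and none of replicate 2 did. Both sides were called in replicate 1 in 18 cases and in replicate 2 in 20.

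The 2 unsupported members with a log2 score of 2.05 shared that exact score with 3 other clusters of the whole combined list, 1 of them on 3L past the limit. Of the 5 clusters with it, 4 were found in neither replicate.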
